A study of Saccharomyces cerevisiae with 16 samples.

Results

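The inner kinetochore and monopolin genes of budding yeast are 10 genes whose products build the chromosome side of the kinetochore or, in meiosis, tie sister kinetochores together. They were chosen by name in the deposited table, and all 10 were found among its 6679 genes: MTW1, DSN1, NNF1 and NSL1 of the MIND complex, MIF2 and CSE4 of the centromere, and MAM1, CSM1, LRS4 and HRR25 of monopolin. The cells were SK1, a laboratory strain that sporulates quickly and evenly, and were collected 3 h or 6 h after being moved to sporulation medium. One strain carried the DBP1 open reading frame (WT), and the other had lost it by a markerless Cas9 method (deletion). DBP1 encodes a DEAD-box RNA helicase. All cells of both strains received 100 µM cycloheximide, which stops ribosomes on mRNA, for 1 min before harvest. Ribosome footprints (mRNA pieces that a ribosome shields from digestion) and mRNA fragments were sequenced, with 2 libraries in each of the 8 groups formed by kind of library, strain and time.

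The kinetochore is the protein assembly that joins a centromere to spindle microtubules. Cse4, the centromeric variant of histone H3, marks the centromeric nucleosome, Mif2 (the yeast CENP-C) binds it, and the MIND complex of Mtw1, Dsn1, Nnf1 and Nsl1 bridges this base to the microtubule-binding outer layer. In meiosis I, monopolin clamps the MIND complexes of sister kinetochores so that sisters move to the same pole. Mam1 is its meiosis-specific subunit, Csm1 and Lrs4 form a subcomplex that stays in the nucleolus for much of the cell cycle, and Hrr25 is a casein kinase with further roles throughout the cell.

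Depth was 4578404 to 6965118 reads assigned to genes per footprint library and 5639298 to 9138259 per mRNA library, and all 10 genes passed the filter of a mean of at least 5 RPKM. DBP1 lay between 147 and 429 RPKM in WT footprint libraries and between 0.449 and 1.12 RPKM in deletion footprint libraries. The mRNA library labelled deletion 3 h replicate 2 went against its label. On a scale where the WT 3 h mean is 0 and the WT 6 h mean is 1 over all tested genes, it lay at 0.898, while its partner, replicate 4, lay at 0.0474. Its values are given apart below, and no mean or test uses it unless stated, so that the deletion 3 h mRNA group holds 1 library, which is assumed to vary like the other groups. The labels do not say whether replicates came from separate cultures. The p-values therefore speak of the spread among these libraries alone, and that spread may be technical.

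Levels are given in RPKM, reads scaled by gene length and library depth, which is relative to the other genes of a library. Between 3 h and 6 h the median of all tested genes moved by -0.96 on the log2 scale in WT footprints and by -1.38 in WT mRNA. A gene that holds its RPKM therefore gains rank against the median gene, and values after the libraries were rescaled by their median ratio are given for the 10 genes wherever that turned a call or the direction of a call over time. In bulk samples like these, fewer cells of a type and less RNA per cell cannot be told apart. Markers of meiotic progress moved with time, as the summed footprint level of 8 early meiotic genes was 9173 to 10495 RPKM at 3 h and 3163 to 4338 RPKM at 6 h, and that of 8 middle meiotic genes 148 to 253 and 23920 to 36931 RPKM. Of the early genes 7 of 8 fell and 0 rose in WT footprints, and of the middle genes 8 of 8 rose (limma, adjusted p under 0.05). After rescaling 6 early genes were lower and 1, IME2, higher, and all 8 middle genes were higher. The summed footprint level of 8 genes of dividing cells was 89.5 to 113 RPKM at 3 h and 134 to 201 RPKM at 6 h, but these genes went both ways. Of the 5 that were tested, 3 rose in WT footprints, among them ASE1 (9.91 to 15.3 and then 76.7 to 121.3 RPKM). The other 2 fell, among them SIC1 (54.1 to 66.8 and then 20.2 to 28.6 RPKM). After rescaling 3 were higher and 0 lower, as ASE1 still rose and SIC1 did not pass. The sum of 9 haploid-cell genes was 94.6 to 103 and 1682 to 1967 RPKM, of which STE18 alone made 9.49 to 16.8 and 1545 to 1813 RPKM. Of the 6 haploid-cell genes that were tested, STE18, STE4 and STE3 rose in WT footprints and GPA1 fell, and after rescaling 4 were higher and 0 lower. Of the pheromone receptor genes that define haploid cells, STE2 was at or under 2.10 RPKM in every footprint library, and STE3 had 6.10 to 7.59 RPKM at 3 h and 20.5 to 25.4 RPKM at 6 h. The part of these other cell states in the results was not tested.

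In WT footprints, HRR25 and MAM1 rose about alike, DSN1 rose, NNF1, MIF2 and LRS4 fell, and MTW1, NSL1, CSE4 and CSM1 did not pass the test. So 6 of the 10 genes were called, 3 higher and 3 lower, where 83.4% of 5312 tested genes were called, 20.1% higher and 63.3% lower. The median change of the 10 genes was 0.12, beside -0.96 for all tested genes. The deletion gave 6 calls as well, 3 higher and 3 lower, in the same 6 genes, where 84.3% of genes were called, 19.3% higher and 65.1% lower. Calls are from limma on log2(RPKM + 1), with Benjamini-Hochberg adjustment over all tested genes and a threshold of 0.05, and changes on that scale understate the change of low genes. After rescaling, 7 of the 10 genes were higher and 1 lower in WT footprints, where 36% of genes were higher and 32.3% lower. In the deletion 7 were then higher and 2 lower, where 34.8% of genes were higher and 31.3% lower. HRR25, MAM1 and DSN1 rose and NNF1 fell under both scalings in the footprints of both strains.

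**Figure D1:**
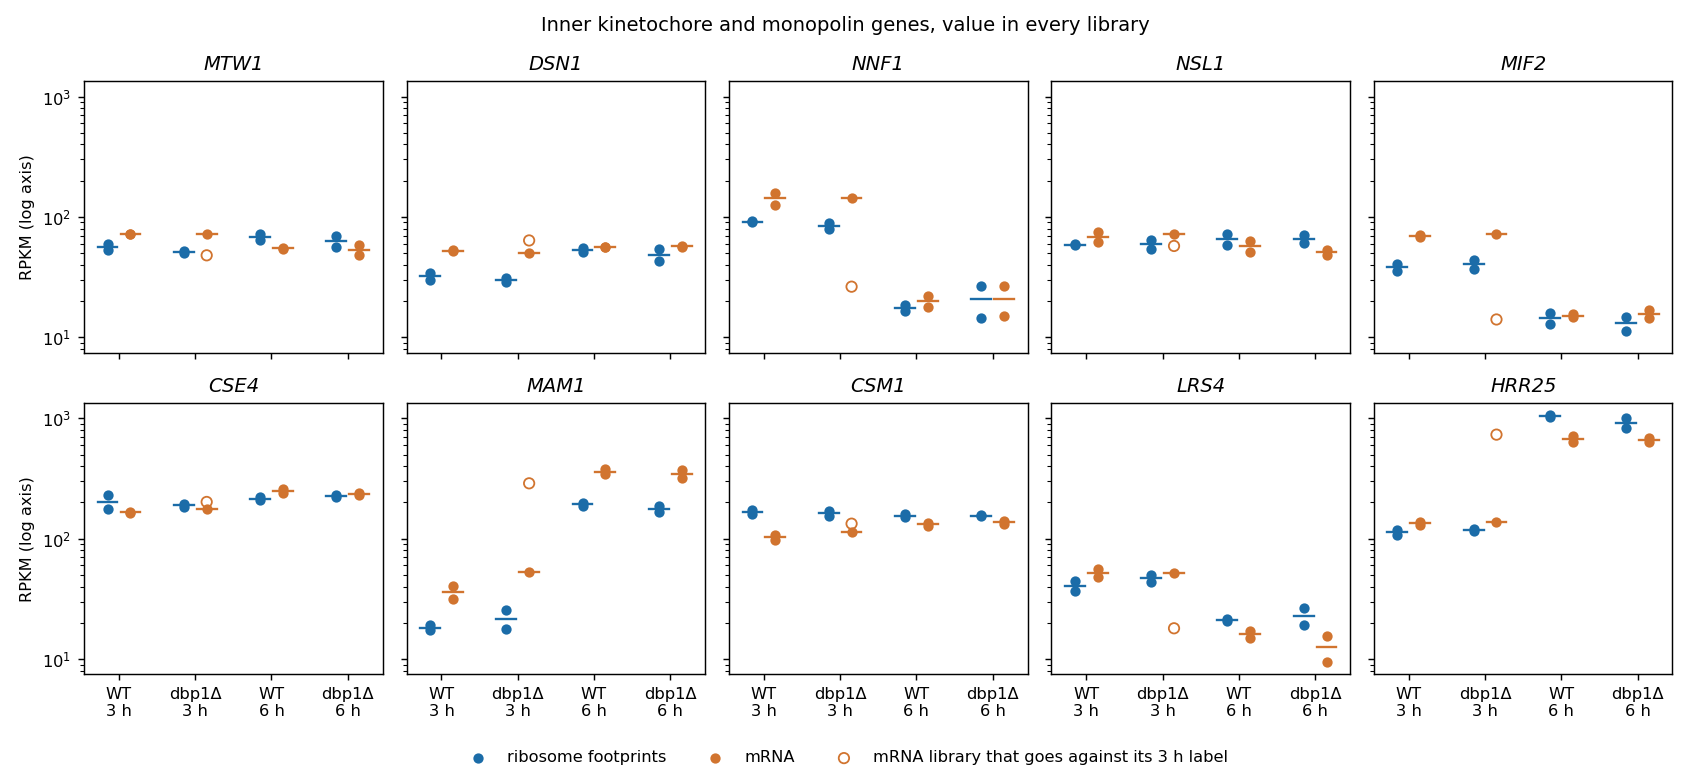
RPKM (log axis) of the 10 genes in every library, by strain and time, with footprints in blue and mRNA in orange. Points are libraries, short lines are group means, and the open circle is the mRNA library that goes against its 3 h label. MAM1 and HRR25 stand higher at 6 h and NNF1, MIF2 and LRS4 lower in both kinds of library, and the open circle lies by the 6 h values for these 5 genes.

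Genes of the MIND complex moved in different directions. NNF1, the smallest of the 4 subunit genes in counted length, had footprint levels of 92.4 and 90.5 RPKM in WT at 3 h (replicates 3 and 4) and of 16.6 and 18.6 RPKM at 6 h. In the deletion it had 79.9 and 88.1 RPKM at 3 h (replicates 2 and 4) and 26.9 and 14.4 RPKM at 6 h. All 4 libraries at 3 h thus stood above all 4 at 6 h, and the widest gap between replicates was in the deletion at 6 h. The footprint change was -2.31 ± 0.25 (SE) in WT and -2.04 ± 0.25 in the deletion, a fall of 4.97-fold in WT (adjusted p = 6.2e-05). Read numbers behind the 6 h values were 39 to 85 per library, so NNF1 at 6 h is the least precisely counted level of the set.

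NNF1 mRNA gave the same picture. It had 125 and 159 RPKM in WT at 3 h and 21.9 and 18.0 RPKM at 6 h, and in the deletion 142 RPKM in the 1 library used at 3 h and 26.6 and 14.99 RPKM at 6 h. The WT mRNA change was -2.77 ± 0.26 (adjusted p = 4.1e-05), and only 245 of the 5720 tested genes had a change further down. The library labelled deletion 3 h replicate 2 held 26.3 RPKM, among the 6 h values. With rescaled libraries NNF1 still fell, with changes of -1.37 in WT footprints and -1.40 in WT mRNA on the log2 scale.

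DSN1, whose product is the MIND subunit phosphorylated by Aurora kinase in yeast, moved the other way in footprints. Its footprint levels were 33.9 and 30.03 RPKM in WT at 3 h and 55.3 and 51.3 RPKM at 6 h. The deletion had 28.8 and 31.3 RPKM at 3 h and 43.0 and 53.8 RPKM at 6 h. No 3 h library reached any 6 h library, and the WT change was 0.72 ± 0.16 (adjusted p = 0.0026). The WT call was lost without WT replicate 3 (adjusted p = 0.058) and without WT replicate 4 (adjusted p = 0.074). DSN1 mRNA had 52.3 and 52.8 RPKM in WT at 3 h and 56.5 and 55.8 RPKM at 6 h, a change of 0.09 ± 0.11 that did not pass the test (adjusted p = 0.42). After rescaling the mRNA change was 1.46 and passed, as did 1.54 in the deletion. In the deletion DSN1 mRNA was 50.1 RPKM in the 1 library used at 3 h and 56.7 and 57.6 RPKM at 6 h, and the library that goes against its label held 63.7 RPKM, the highest of all.

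MTW1, which names the complex, and NSL1 stayed within a narrow band of RPKM levels. MTW1 footprints were 59.3 and 53.0 RPKM in WT at 3 h and 72.3 and 64.4 RPKM at 6 h. In the deletion MTW1 had 51.8 and 50.3 RPKM at 3 h and 56.5 and 69.5 RPKM at 6 h, overlapping the WT 3 h values. The footprint change of 0.28 ± 0.15 in WT did not pass (adjusted p = 0.11). After rescaling MTW1 footprints were called higher in both strains, by 1.24 in WT (adjusted p = 0.00036) and by 1.27 in the deletion (adjusted p = 0.00033). MTW1 mRNA was lower at 6 h, with 72.3 and 72.6 RPKM at 3 h and 54.5 and 55.5 RPKM at 6 h in WT, a change of -0.39 ± 0.13 (adjusted p = 0.020) that turned to 0.98 after rescaling and, in the deletion, from -0.45 to 0.91. That mRNA call was lost when either WT replicate was left out. In the deletion MTW1 mRNA was 72.4 RPKM in the 1 library used at 3 h and 48.2 and 57.9 RPKM at 6 h, and the library that goes against its label, at 47.9 RPKM, was close to the lower of these.

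NSL1 footprints were 59.1 and 58.6 RPKM in WT at 3 h and 72.2 and 58.6 RPKM at 6 h, and in the deletion 64.4 and 54.5 RPKM and then 60.5 and 70.5 RPKM. The groups overlapped, and the 95% interval of the WT change ran from -0.23 to 0.51. After rescaling they too were called higher in both strains, by 1.10 in WT (adjusted p = 0.00087) and by 1.12 in the deletion (adjusted p = 0.00085). NSL1 mRNA in WT was 61.6 and 74.9 RPKM at 3 h and 62.5 and 51.1 RPKM at 6 h, again overlapping. In the deletion its mRNA was called lower, by -0.50 ± 0.19 (adjusted p = 0.040), with 72.3 RPKM in the 1 library used at 3 h, 53.5 and 48.6 RPKM at 6 h and 57.3 RPKM in the library that goes against its label. This call was lost when either WT replicate was left out, without the filter on low values, without limma's trend of variance on level, and with the library that goes against its label taken in. After rescaling the NSL1 mRNA change was 1.11 in WT and 0.86 in the deletion.

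As shares of the 4 subunits' summed footprint RPKM, NNF1 held 35.5% to 39.3% of the sum in the 3 h libraries and 6.90% to 14.4% in the 6 h libraries. DSN1 held 12.8% to 14.0% and then 23.0% to 26.6%, MTW1 22.4% to 24.2% and then 30.2% to 33.4%, and NSL1 24.2% to 28.6% and then 30.4% to 33.9%. For each subunit the 2 ranges did not overlap. The shares of a library add up to its whole sum, so a fall of NNF1 by itself raises the shares of the others. In RPKM the footprints of MTW1 and NSL1 did not pass the test over time, though they did after rescaling. NNF1 was the highest of the 4 in every 3 h footprint library and the lowest in every 6 h footprint library, and DSN1 was the lowest at 3 h. Shares within a library do not depend on how libraries are scaled. In mRNA, NNF1 held 40.3% to 44.3% at 3 h and 8.37% to 14.4% at 6 h.

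**Figure D2:**
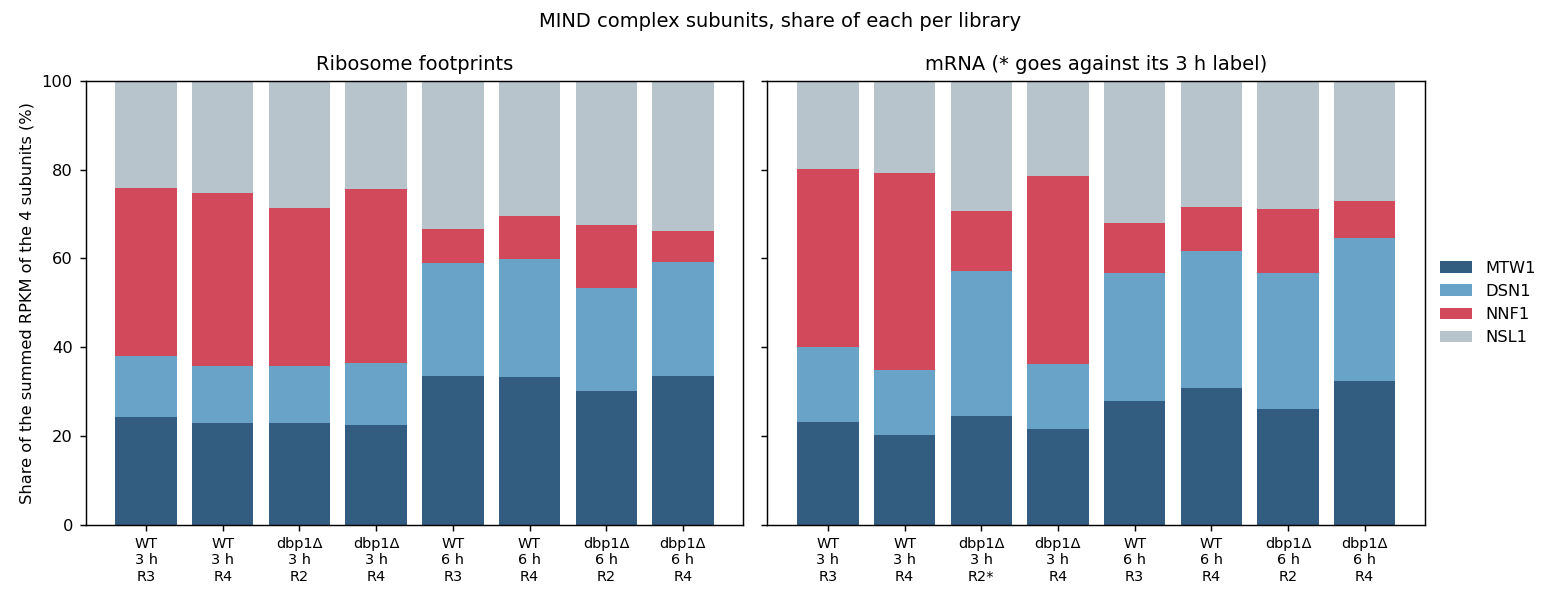
Share (%) of each MIND subunit gene in the summed RPKM of MTW1, DSN1, NNF1 and NSL1, 1 bar per library, in footprints (left) and mRNA (right); R stands for replicate, and the star marks the mRNA library that goes against its 3 h label. NNF1 takes 35.5% to 39.3% of the footprint sum at 3 h and 6.90% to 14.4% at 6 h.

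At the centromere, MIF2 and CSE4 differed. MIF2 footprints were 40.7 and 35.4 RPKM in WT at 3 h and 16.0 and 12.9 RPKM at 6 h, and in the deletion 43.9 and 37.0 RPKM and then 14.8 and 11.3 RPKM. Every 3 h library was above every 6 h library. The WT change was -1.34 ± 0.19 (adjusted p = 0.00027), but it came to -0.41 and did not pass after rescaling (adjusted p = 0.073), while the deletion's change was then -0.62 and passed (adjusted p = 0.015). MIF2 mRNA fell more, from 68.6 and 70.3 RPKM to 14.7 and 15.6 RPKM in WT, a change of -2.13 ± 0.13 (adjusted p = 8.7e-06), and it still fell after rescaling, by 0.78. The rescaled difference between the footprint and mRNA changes of MIF2 in WT did not pass (limma, adjusted p = 0.39). The deletion held 71.8 RPKM of MIF2 mRNA at 3 h and 17.0 and 14.4 RPKM at 6 h. The library labelled deletion 3 h replicate 2 held 14.0 RPKM.

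CSE4 was the gene of the set with the highest footprint level at 3 h. It had 229 and 176 RPKM in WT at 3 h and 209 and 220 RPKM at 6 h. The deletion gave 184 and 196 RPKM at 3 h and 231 and 223 RPKM at 6 h. The WT groups overlapped and the change was 0.09 ± 0.15 (adjusted p = 0.57), which became 1.06 and passed after rescaling, as did 1.24 in the deletion. CSE4 mRNA rose from 163 and 167 RPKM to 241 and 257 RPKM in WT, by 0.59 ± 0.11 (adjusted p = 0.0014), a call that was lost when either WT replicate was left out. In the deletion it was 178 RPKM in the 1 library used at 3 h and 229 and 242 RPKM at 6 h, and the library that goes against its label lay between, at 202 RPKM.

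Monopolin held the largest rises of the set. MAM1, its meiosis-specific subunit, had footprint levels of 19.0 and 17.4 RPKM in WT at 3 h and of 187 and 198 RPKM at 6 h. In the deletion the values were 25.5 and 17.6 RPKM at 3 h and 166 and 186 RPKM at 6 h. The 3 h and 6 h libraries lay far apart in both strains, and the WT change was 3.34 ± 0.18 (10.1-fold, adjusted p = 2.1e-06), with 194 of the 5312 tested genes rising more. MAM1 mRNA went from 40.3 and 31.7 RPKM to 345 and 376 RPKM in WT, a change of 3.30 ± 0.15 (adjusted p = 5.3e-06). In the deletion it was 53.3 RPKM in the 1 library used at 3 h, 320 and 373 RPKM at 6 h, and 289 RPKM in the library that goes against its label.

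HRR25, the kinase of the complex, had footprint levels of 119 and 107 RPKM in WT at 3 h and of 1028 and 1063 RPKM at 6 h. The deletion had 119 and 115 RPKM at 3 h and 838 and 1003 RPKM at 6 h. HRR25 thus moved past CSE4 and CSM1 to the top of the 10 genes by footprint level, and its WT change was 3.20 ± 0.14 (9.22-fold, adjusted p = 5.0e-07). HRR25 mRNA rose less in RPKM, from 139 and 129 RPKM to 637 and 708 RPKM in WT, by 2.32 ± 0.12 (4.98-fold, adjusted p = 6.5e-06). After rescaling, HRR25 changed by 4.17 in WT footprints and by 3.71 in WT mRNA, and the difference did not pass (limma, adjusted p = 0.28). In the deletion its mRNA had 139 RPKM in the 1 library used at 3 h and 633 and 693 RPKM at 6 h, and the library that goes against its label held 733 RPKM. Between 6916 and 7759 footprint reads per library stood behind the 6 h values, so counting error is small for this gene.

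CSM1 and LRS4, which act as 1 subcomplex, did not move alike. CSM1 footprints were 172 and 161 RPKM in WT at 3 h and 159 and 151 RPKM at 6 h, and in the deletion 155 and 171 RPKM and then 155 and 156 RPKM. The WT change was -0.10 ± 0.12 (adjusted p = 0.45), and after rescaling it was 0.87 and passed, as did 0.92 in the deletion. LRS4 footprints were 44.6 and 36.7 RPKM in WT at 3 h and 21.7 and 20.7 RPKM at 6 h, and in the deletion 50.3 and 43.3 RPKM and then 26.5 and 19.0 RPKM. LRS4 fell by 0.90 ± 0.19 in WT footprints (adjusted p = 0.0024), close to the median gene, since after rescaling its change was 0.04 (adjusted p = 0.84) and that of the deletion -0.06 (adjusted p = 0.77). Its call was also lost without WT replicate 3 (adjusted p = 0.071).

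In mRNA the pair parted further. CSM1 mRNA had 107 and 97.4 RPKM in WT at 3 h and 129 and 136 RPKM at 6 h, a rise of 0.37 ± 0.12 (adjusted p = 0.017) that was lost when either WT replicate was left out. LRS4 mRNA had 48.1 and 56.0 RPKM at 3 h and 17.0 and 14.9 RPKM at 6 h, a change of -1.64 ± 0.23 (adjusted p = 0.00029) that did not pass after rescaling (-0.29, adjusted p = 0.20), while in the deletion LRS4 mRNA still passed then, at -0.68 (adjusted p = 0.032). In the deletion CSM1 mRNA was 114 RPKM in the 1 library used at 3 h and 132 and 142 RPKM at 6 h, and LRS4 mRNA 52.1 RPKM and then 15.7 and 9.44 RPKM. The library that goes against its label held 133 and 18.0 RPKM of these genes, near the 6 h values of both.

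The footprint level of CSM1 was 3.08 to 4.39 times that of LRS4 in the 3 h libraries and 5.84 to 8.21 times at 6 h, and for mRNA 1.74 to 2.23 times and then 7.56 to 15.02 times. Against MAM1, CSM1 footprints were 6.07 to 9.70 times as high at 3 h and 0.762 to 0.932 times at 6 h. These ratios within a library are free of the scaling between libraries, and neither pair of ranges overlapped between the times.

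In WT mRNA, 8 of the 10 genes were called, 4 higher (MAM1, HRR25, CSE4, CSM1) and 4 lower (NNF1, MIF2, LRS4, MTW1), where 89.3% of 5720 tested genes were called, 16.4% higher and 72.9% lower. After rescaling 7 were higher and 2 lower, where 38.1% of genes were higher and 35.5% lower. In the deletion 3 were called higher and 5 lower in mRNA, where 86.7% of genes were called, 14.8% higher and 71.9% lower, and after rescaling 7 higher and 3 lower, where 34.6% and 30.4% of genes were. CSM1, at 0.26 ± 0.14, did not pass there (adjusted p = 0.11), but did after rescaling, at 1.63.

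**Figure D3:**
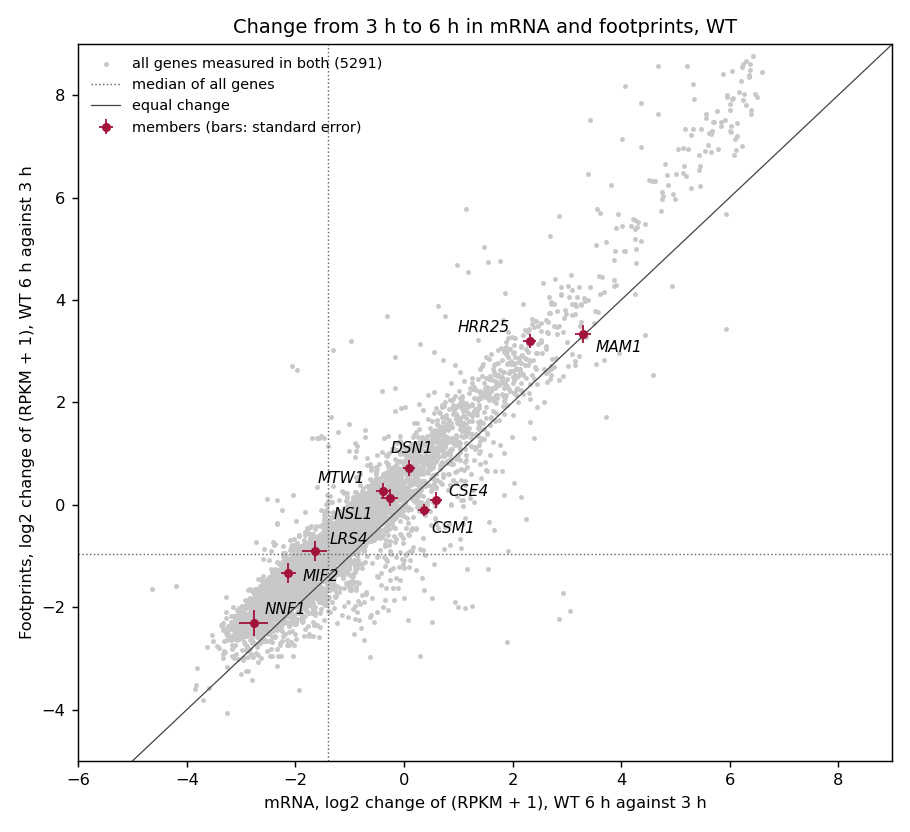
Log2 change of (RPKM + 1) from 3 h to 6 h in WT, mRNA on the horizontal and footprints on the vertical axis, for 5291 genes measured in both (grey) and the 10 genes (red, bars are standard errors). Dotted lines are the medians of all genes and the solid line is equal change; CSM1 and CSE4 lie below the solid line, MAM1 lies on it, and the other 7 genes lie above it.

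By footprint level per length, the order in WT at 3 h ran CSE4 (203 ± 37.1 RPKM, SD, n = 2), CSM1 (167 ± 8.08), HRR25 (113 ± 8.62), NNF1 (91.4 ± 1.37), NSL1 (58.9 ± 0.347), MTW1 (56.2 ± 4.48), LRS4 (40.7 ± 5.60), MIF2 (38.1 ± 3.69), DSN1 (32.0 ± 2.72) and MAM1 (18.2 ± 1.19). The library values of NSL1 and MTW1 overlapped, as did those of LRS4 and MIF2, so these neighbours did not differ beyond their spread. At 6 h the order was HRR25 (1046 ± 24.4 RPKM, SD, n = 2), CSE4 (214 ± 8.22), MAM1 (193 ± 7.99), CSM1 (155 ± 5.89), MTW1 (68.3 ± 5.56), NSL1 (65.4 ± 9.63), DSN1 (53.3 ± 2.82), LRS4 (21.2 ± 0.713), NNF1 (17.6 ± 1.44) and MIF2 (14.5 ± 2.19). Only MTW1 and NSL1 overlapped among neighbours at 6 h. MAM1 thus went from the last place to the third and NNF1 from the fourth to the last but one.

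Footprints per mRNA, the ratio of the 2 RPKM values, is a measure of translation efficiency. Each of the 2 values is relative to the other genes of its own library. In RPKM the ratio rose over time for most genes. Its median over all genes was 0.767 and 0.718 in WT at 3 h and 1.02 and 1.03 at 6 h. The median change in efficiency of all tested genes was 0.50 in WT on the log2 scale. After rescaling that median was 0.08, so the general shift depends on how libraries are scaled. Before rescaling, the changes of the 10 genes ran from -0.50 to 0.89. HRR25 had ratios of 0.856 and 0.825 in WT at 3 h and of 1.61 and 1.50 at 6 h, a change in efficiency of 0.89 ± 0.17 on the log2 scale (adjusted p = 0.0052). MTW1 changed by 0.67 ± 0.19 (adjusted p = 0.024), DSN1 by 0.63 ± 0.18 (adjusted p = 0.024) and MIF2 by 0.79 ± 0.24 (adjusted p = 0.028). After rescaling the changes were 0.45 for HRR25, 0.24 for MTW1, 0.19 for DSN1 and 0.36 for MIF2. None of these passed then (limma, adjusted p = 0.28, 0.65, 0.68 and 0.39).

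CSM1 went against this shift of the RPKM ratios. Its ratios were 1.61 and 1.65 in WT at 3 h and 1.24 and 1.11 at 6 h, a change of -0.47 ± 0.15 (adjusted p = 0.036), where 5064 of the 5291 tested genes had a higher change. CSE4 had ratios of 1.40 and 1.05 at 3 h and of 0.865 and 0.858 at 6 h, with a change of -0.50 ± 0.18 that just missed the threshold (adjusted p = 0.054). After rescaling, both were called lower in WT, CSE4 at -0.93 (adjusted p = 0.016) and CSM1 at -0.90 (adjusted p = 0.015), and no other member was called.

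MAM1 had the lowest ratio of the 10 genes in 6 of the 7 pairs of footprint and mRNA libraries used, and in the other, WT 3 h replicate 4, MIF2 was lower (0.504). In WT the ratios were 0.472 and 0.547 at 3 h and 0.543 and 0.527 at 6 h, and in the deletion 0.330 at 3 h and 0.520 and 0.497 at 6 h. Its WT change of 0.04 ± 0.25 did not pass (adjusted p = 0.91), and its 95% interval ran from -0.51 to 0.59. So in RPKM the rise of MAM1 footprints was near that of its mRNA, within this interval. Of the 5291 tested genes, 4520 had a higher change in efficiency. After rescaling the change of MAM1 was -0.40, which did not pass either (limma, adjusted p = 0.49).

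In all, 5 of the 10 genes were called for efficiency in WT, 4 higher and 1 lower, where 32.7% of 5291 tested genes were called, 30.2% higher and 2.48% lower. In the deletion 2 were called, both higher, MTW1 (0.74 ± 0.21, adjusted p = 0.037) and HRR25 (0.71 ± 0.19, adjusted p = 0.030), where 19% of genes were called, 17.2% higher and 1.8% lower. None of the WT efficiency calls was left without WT replicate 3 or without WT replicate 4, each of which leaves 1 library per WT group. The 4 higher calls in WT and both in the deletion were also lost after rescaling, where 2.14% of genes were called higher and 3.25% lower in WT. The rescaled changes in the deletion were 0.35 for MTW1 and 0.31 for HRR25 (limma, adjusted p = 0.65 for each).

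**Figure D4:**
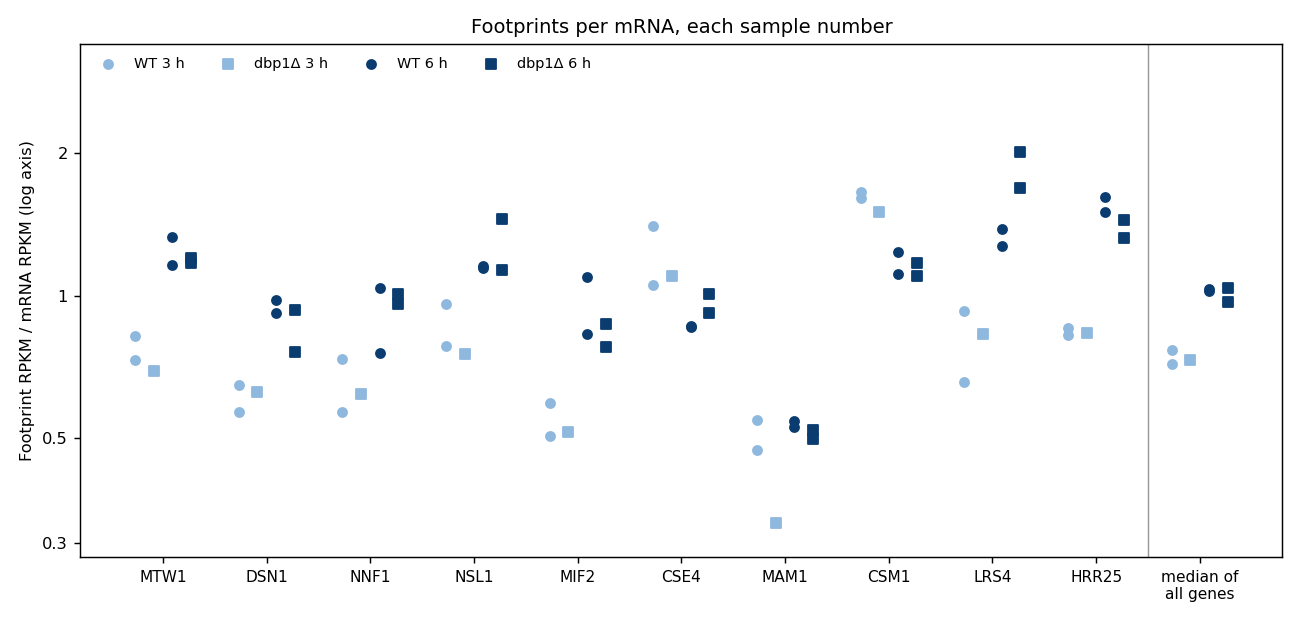
Footprint RPKM over mRNA RPKM (log axis) of the 10 genes and the median of all genes, 1 point per sample number, by strain (circles WT, squares deletion) and time (light 3 h, dark 6 h), without the sample whose mRNA library goes against its label. The median of all genes is higher at 6 h, CSM1 is lower at 6 h, and MAM1 stays between 0.330 and 0.547.

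The deletion of DBP1 was not seen to change these genes beyond the spread between libraries. In footprints, 0 of the 10 genes were called between deletion and WT at 3 h and at 6 h, where 0.0377% and 0.0565% of 5312 genes were called (limma). At an unadjusted p under 0.05 the count was also 0 at both times, and limma-voom on recovered reads called 0. The footprint differences ran from -0.13 (MTW1) to 0.21 (MAM1) at 3 h and from -0.19 (HRR25) to 0.16 (NNF1) at 6 h. The widest 95% intervals were those of NNF1, from -0.71 to 0.46 at 3 h and from -0.43 to 0.74 at 6 h. In simulated footprint data 200 genes were changed. Of those changed by 1 on the log2 scale, 78% were called between the strains at 3 h and 83% at 6 h. So many changed genes make the adjusted threshold easier to pass. In the real comparisons only 2 genes were called at 3 h and 3 at 6 h. These percentages therefore overstate how often such a change in a few genes would be called. For HRR25 at 6 h the interval was -0.50 to 0.12.

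In mRNA, 0 of the 10 were called at 3 h, where 0.0175% of 5720 genes were called, and 0 at 6 h, where 0.035% were called (limma). MAM1 at 3 h was the 1 gene with an unadjusted p under 0.05, at 0.56 ± 0.19 (adjusted p = 0.92), and it rests on the 1 deletion library with 53.3 RPKM against 40.3 and 31.7 RPKM in WT. At 6 h the count at an unadjusted p under 0.05 was 0, and limma-voom called 0 at both times. LRS4 mRNA at 6 h had the largest difference there, -0.36 ± 0.23. It had 15.7 and 9.44 RPKM in the deletion and 17.0 and 14.9 RPKM in WT, which overlap. Differences in efficiency at 6 h ran from -0.20 (MIF2) to 0.44 (LRS4). The ratios of LRS4 were 1.69 and 2.01 in the deletion and 1.27 and 1.38 in WT. The 95% interval of its efficiency difference ran from -0.26 to 1.15. The widest such interval at 6 h was that of NNF1, from -0.76 to 1.04. For efficiency, 0 of the 10 were called at either time, where 0.0189% of 5291 genes were called at each (limma), with 0 at an unadjusted p under 0.05 and 0 by limma-voom.

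The change from 3 h to 6 h in footprints was also compared directly between the strains. Of the 10 genes 0 were called, where 0% of 5312 genes were called, and limma-voom likewise called 0, with 0 at an unadjusted p under 0.05. The differences ran from -0.35, for MAM1, to 0.28, for NNF1.

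**Figure D5:**
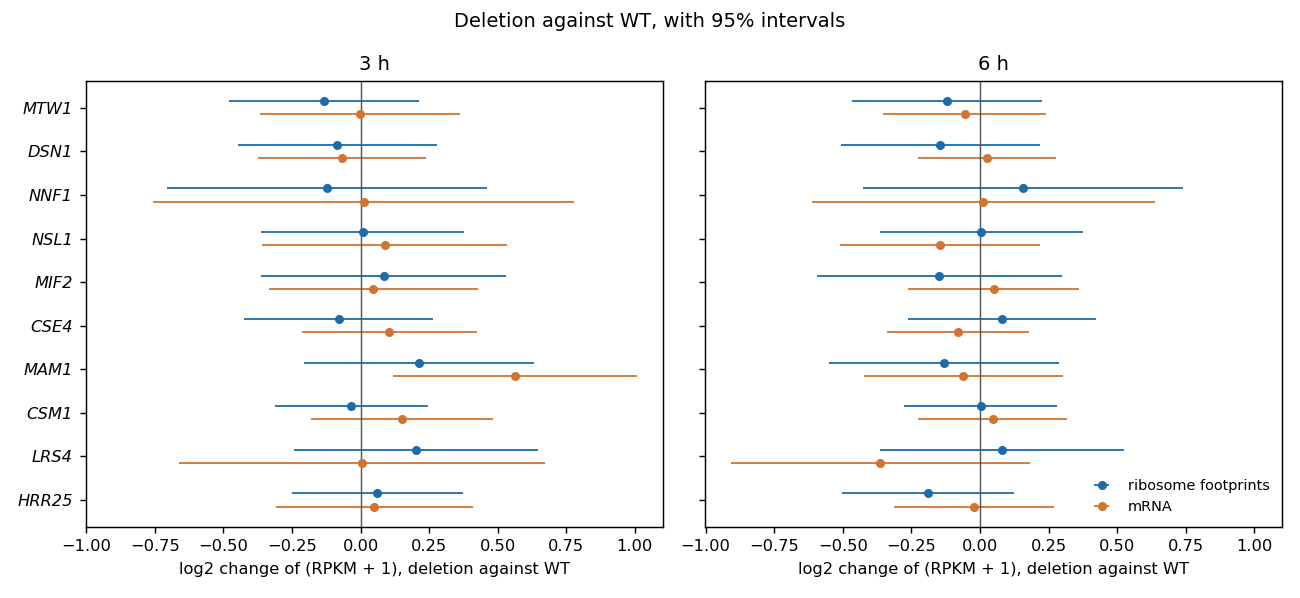
Log2 change of (RPKM + 1) in deletion against WT at 3 h (left) and 6 h (right) for the 10 genes, footprints in blue and mRNA in orange, with 95% intervals from limma. All intervals but that of MAM1 mRNA at 3 h, 0.12 to 1.01, contain 0.

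Other genes of the kinetochore, not all of them of its inner layer, were followed through a list of 24, all of which were tested. In WT footprints 17 of them were lower at 6 h, 3 higher and 4 not called, where 63.3% of all tested genes were lower and 20.1% higher, and their median was -1.13 beside -0.96 for all genes. After rescaling 9 were lower and 7 higher, where 32.3% and 36% of all genes were. These shares lie near those of all genes. The 3 that rose were AME1 (1.51 ± 0.18), OKP1 (1.11 ± 0.15) and WIP1 (0.47 ± 0.15), and all 3 rose after rescaling too. Ame1 and Okp1 form the part of the COMA complex that binds MIND directly. AME1 footprints went from 18.4 and 18.2 RPKM to 56.6 and 51.6 RPKM in WT, and OKP1 from 46.3 and 43.0 RPKM to 97.3 and 97.9 RPKM.

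The other COMA members, CTF19 and MCM21, were among those that fell, with changes of -1.85 ± 0.28 and -1.89 ± 0.29, and both also fell after rescaling. CTF19 footprints were 19.6 and 19.1 RPKM in WT at 3 h and 3.42 and 6.19 RPKM at 6 h. These COMA values were singled out after they were seen. By smallest p, the falls were led by NKP2 (-2.03 ± 0.17), MCM22 (-1.84 ± 0.22), SCM3 (-2.27 ± 0.28) and PSH1 (-1.12 ± 0.15), of which NKP2, MCM22 and SCM3 also fell after rescaling and PSH1 did not pass (-0.18). Scm3 is the chaperone that places Cse4 at centromeres, and Psh1 the ubiquitin ligase that removes misplaced Cse4. In WT mRNA 3 of the 24 were higher and 18 lower, where 16.4% of all genes were higher and 72.9% lower. For WT efficiency 7 were higher and 0 lower, where 30.2% and 2.48% of all genes were. These counts too are near the shares over all genes. After rescaling the mRNA counts were 8 and 12, where 38.1% and 35.5% of all genes were, and those of efficiency 0 and 0. None of the 24 was called between the strains in footprints, mRNA or efficiency.

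Partners of monopolin were followed through 10 genes, of which 4 rose and 5 fell in WT footprints, where 20.1% of all tested genes were higher and 63.3% lower. After rescaling 6 were higher and 2 lower, where 36% and 32.3% of all genes were. Among genes needed at the kinetochore, CDC5, the Polo kinase that monopolin needs to load there, went from 26.0 and 20.1 RPKM to 514 and 550 RPKM, a rise of 4.48 ± 0.17 (adjusted p = 2.9e-07). SPO13, a meiosis-specific regulator of mono-orientation, went from 564 and 568 RPKM to 167 and 159 RPKM, a change of -1.79 ± 0.19 that stayed past the threshold after rescaling. DBF4 and CDC7, the subunits of the Dbf4-dependent kinase, fell, with changes of -1.04 ± 0.12 and -0.50 ± 0.12, but after rescaling DBF4 did not pass (-0.07) and CDC7 was called higher (0.47).

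Among the nucleolar and nuclear-envelope partners of Csm1 and Lrs4, HEH1 rose by 3.39 ± 0.17, NUR1 by 1.40 ± 0.20 and TOF2 by 0.61 ± 0.14 in WT footprints, also after rescaling. NET1 fell by 1.55 ± 0.19, also after rescaling, and FOB1 fell by 0.94 ± 0.26, which did not pass after rescaling (-0.13). HEH1, which encodes an inner nuclear membrane protein and is listed as SRC1, went from 44.6 and 43.8 RPKM to 472 and 472 RPKM. CDC14, the phosphatase held in the nucleolus by Net1, had 67.2 and 67.2 RPKM of footprints at 3 h and 68.4 and 71.9 RPKM at 6 h, a change of 0.06 ± 0.14 that did not pass, and 1.02 after rescaling. CDC14 mRNA rose by 1.28 ± 0.10, and its efficiency fell by 1.22 ± 0.16 (adjusted p = 0.00079), also after rescaling (-1.67). In WT mRNA 4 of the 10 partners were higher and 5 lower, where 16.4% and 72.9% of all genes were, and for WT efficiency 5 were higher and 1 lower, where 30.2% and 2.48% were. After rescaling the mRNA counts were 5 and 2, where 38.1% and 35.5% of all genes were, and those of efficiency 0 and 1, where 2.14% and 3.25% were. No partner was called between the strains.

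Across the 8 footprint libraries, the genes whose log2(RPKM + 1) was most like that of MAM1 were FYV8, YBR063C, SCS7, HEF3 and CCC1, each with a Pearson r of 0.999. Over the 7 mRNA libraries used, their r with MAM1 was 0.991, 0.999, 0.992, 0.984 and 0.994. These libraries fall into 2 times, and 363 of 5311 genes had an r above 0.99, so that likeness here mostly describes the split between 3 h and 6 h. Among the set, r with MAM1 in footprints was 0.997 for HRR25 and 0.945 for DSN1, and -0.983, -0.966 and -0.932 for NNF1, MIF2 and LRS4. YBR063C, with footprint levels of 2.84 and 1.96 RPKM in WT at 3 h and of 974 and 989 RPKM at 6 h, had by far the widest rise of these 5 genes.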

How the data were processed

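Ribosome footprint and mRNA libraries of sporulating yeast were measured. Per the labels' protocols, size selection kept 28 to 31 nt for footprints and 50 nt for mRNA. The authors deposited RPKM values per gene and library; the tools listed, per the submitters' processing notes, are Bowtie2, bcl2fastq 2.17 and CASAVA. Build, annotation, counting tool and strand setting: not given in the sources used here. None of the 10 genes overlaps another gene of RefSeq assembly R64. In both kinds of library, the step between neighbouring RPKM values gave whole reads, to within 0.02 of a read, for 6679 of 6679 genes. The counted length was the R64 length less 60 bases for 5019 of 5739 genes in footprints and 5086 of 5831 in mRNA, and for 9 of the 10 genes. PCR reads are not independent molecules, so read numbers speak of counting error only.

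The test was limma 3.58.1 under R 4.3.3, with eBayes and its trend option, on log2(RPKM + 1) of genes that averaged 5 RPKM or more in the fitted libraries of a kind. It was two-sided, with Benjamini-Hochberg adjustment over all genes. Footprints were fitted over 8 libraries, mRNA over 7 and efficiency, the footprint change minus the mRNA change, in 1 model over 15. Steps were tested on simulated data. Named genes were the 10 members, the 4 genes of smallest p per direction among other kinetochore genes, all monopolin partners, and the 5 genes most like MAM1. The members and lists were chosen with earlier results of these data known, so the patterns are no independent evidence. Other settings tried were no filter, a pseudocount of 5 RPKM, rescaling by the median ratio, no trend, a replicate block, limma-voom on recovered reads, keeping the mRNA library that goes against its label, and leaving out each replicate. For efficiency the replicate block was by sample number. Python 3.11.15 with matplotlib 3.10.9 drew the figures.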

Additional observations from a re-analysis of the deposited data

Results flagged for a closer look

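DSN1 mRNA in the deletion was 0.953 times the WT mean at 3 h and 1.02 times at 6 h. It was picked out because every deletion library used lay below both WT libraries at 3 h (50.1 RPKM against 52.3 and 52.8 RPKM) and above both at 6 h (56.7 and 57.6 RPKM against 56.5 and 55.8 RPKM). The deletion had 1 library at 3 h, and the difference between the times was not tested for mRNA.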

How the results depend on the processing

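Of 1340 values of the 10 genes recomputed under 11 other settings, 59 lost the call and 22 gained one with the sign kept. Another 7 reversed, which here means that the sign changed and at least 1 of the 2 fits passed the threshold. The other 1252 kept their side of the threshold. Of these, 100 changed sign while past the threshold in neither setting, 89 of them between the strains. Rescaling by the median ratio gave all 7 reversals: CSM1 to 0.87 and LRS4 to 0.039 in WT footprints, CSM1 to 0.92 in deletion footprints, MTW1 to 0.98 and NSL1 to 1.11 in WT mRNA, and MTW1 to 0.91 and NSL1 to 0.86 in deletion mRNA. Only MTW1 mRNA in both strains and NSL1 mRNA in the deletion were called in opposite directions. CSM1 footprints in both strains and NSL1 mRNA in WT were called only after rescaling, and LRS4 only before. These reversals follow from the construction of the rescaling, which sets the median gene near 0. Counts of genes called over time moved as follows. With rescaling, efficiency calls went from 5 to 2 in WT and from 2 to 0 in the deletion. With the mRNA library that goes against its label, mRNA calls went from 8 to 5 in WT and from 8 to 0 in the deletion, and efficiency calls to 0 in both strains. With 1 replicate left out, the counts were 4 to 6 (WT footprints), 6 to 7 (deletion footprints), 5 to 8 (mRNA, each strain), 0 to 7 (WT efficiency) and 0 to 4 (deletion efficiency), the 4 being without deletion replicate 2. Counts between the strains stayed at 0 in every setting. Without deletion replicate 4 no deletion 3 h mRNA library was left, so mRNA and efficiency could not be fitted there for the deletion over time or for the strains at 3 h.

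Replicates shared numbers between the times, but the deviations of same-numbered libraries had correlations of -0.04 (WT footprints), 0.24 (deletion footprints) and 0.05 (WT mRNA), so the numbers were not taken as pairs. Footprint and mRNA libraries of 1 sample number, which the efficiency model treats as independent, had correlations of -0.34 (WT 3 h), -0.17 (WT 6 h) and 0.67 (deletion 6 h). The replicate block used the replicate number for footprints and for mRNA. For efficiency it used the sample number, which pairs the footprint and mRNA libraries. With it the counts in WT and deletion were 6 and 6 for footprints, 8 and 7 for mRNA and 7 and 3 for efficiency. Under the block MTW1 mRNA in the deletion was not called (-0.32, adjusted p = 0.062), and CSE4 (-0.50, adjusted p = 0.047) and LRS4 (0.74, adjusted p = 0.028) efficiency in WT and LRS4 efficiency in the deletion (1.09, adjusted p = 0.031) were. Low read numbers limit NNF1 at 6 h most, and also LRS4 at 6 h, MIF2 footprints at 6 h and MAM1 footprints at 3 h.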
